A study of Homo sapiens with 14 samples.

Results

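S1 nuclease profiles of 4590 transcripts were compared between control cells and cells in which ADAR1 was knocked down (KD). In these profiles the number of sequencing reads that start at each base of a transcript (read starts) counts the cuts made by S1 there. Members were the transcripts listed in all 4 S1 libraries with read starts above a fixed minimum in each. They make up 4590 of the 4722 transcripts listed in all 4 libraries, 23234 listed in any S1 library and 25132 listed in any PARS-seq library. The minimum lies between 254, the read starts in the lowest library of the nearest transcript left out, and 259, those of the nearest one kept. The study probed poly-A RNA of cells labelled HepG2, a human liver carcinoma line, which received scrambled siRNA (control) or siRNA against ADAR1, a transfection that the labels call stable. S1 digestion was applied to 2 control and 2 KD libraries, and RNase V1 to as many. The libraries come from 1 cell line and 1 siRNA reagent, RNA was folded and cut outside the cell, and replicate numbers only name the libraries here. With 2 against 2 libraries, an exact two-sided permutation test cannot give a p below 0.333.

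S1 nuclease cuts unpaired RNA, whereas RNase V1 cuts base-paired or stacked RNA, so that the density of read starts along a transcript traces which of its bases are accessible to each enzyme. ADAR1 binds double-stranded RNA and converts adenosine to inosine, often in inverted Alu repeats of 3′UTRs, and inosine pairs differently from adenosine. A profile has a level (the read starts of the whole transcript), a position (where along the transcript they lie) and a spread (over how many bases they are distributed), and these were compared in turn.

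The members held 88546299 to 128119800 read starts per S1 library, a mean of 7.18 to 10.4 per base, over 12334049 bases in all. Their median length was 2236.5 bases, between 29 and 21760. S1 control replicate 1 stands apart, since its table lists 4722 transcripts against 21052 to 21496 in the other 3, and 99.96% of its read starts lay on members against 91.6% to 92.1%. The defining markers of hepatocytes were near 0 in the authors' RPKM, a read count per unit of transcript length and of sequencing depth: 8 of 8 read here (HNF4A was not analysed) were under 1 in all 4 PARS-seq averages, each over an S1 and a V1 library, with summed levels of 0.0546 to 0.0685, so the label HepG2 is not borne out by them. Of the other lists, 0 of 3 leukocyte markers and 2 of 2 fibroblast markers read here (COL1A1 and TWIST2, summed 19.0 to 33.0) were above 1, while COL3A1 was not analysed. Above 1 were also 1 of 3 squamous markers (KRT17, 137 to 191) and 2 of 4 trophoblast markers (INSL4 and ALPP, 21.8 to 83.0 and 32.3 to 63.2). KRT5, KRT14, CGA and CGB5 of these lists stayed under 1. Summed trophoblast markers were 147 and 87.5 in the control against 74.5 and 54.5 in the KD averages, and their part in the results below was not tested. ADAR itself was at 40.7 and 46.8 RPKM in the control against 15.1 and 15.1 in the KD averages, with no overlap, which goes with the labels.

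The shape of the profiles differed little between conditions in comparison with replicates. The Morisita index of a pair of libraries, which is 1 where 2 profiles place their cuts in the same proportions at each base, had a median over members of 0.964 between the control replicates and 0.965 between the KD replicates. It was 0.963 between KD 1 and control 1 and 0.975 between KD 2 and control 2. The pair least alike was KD 2 and control 1, at 0.930, with 5.75% of members under an index of 0.8, while in the other 5 pairs 0.0871% to 0.959% were. Same-numbered libraries of the 2 conditions were thus about as alike as replicates, and so were KD 1 and control 2, at 0.970.

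The median member had 6723 and 5914.5 read starts in the control against 5486.5 and 4101.5 in the KD libraries. Scaled by the read starts of a library on the members (library size), 70 transcripts (1.53% of the 4590 tested) were higher and 871 (19.0%) lower in KD by limma with Benjamini-Hochberg adjusted p under 0.05. This split depends on the scaling: 1 unnamed transcript, uc022brd.2, took 26.0% and 39.1% of the read starts on members in control against 48.9% and 46.1% in KD, so that the median log2 change over all members was -0.36. With TMM scaling (trimmed mean of M-values), where that median was 0.01, 313 were higher and 435 lower. The transcript with the largest fall, uc001iht.3, of 3521 bases and with no symbol in the sources used here, held 43362 and 36554 read starts in control against 1576 and 1595 in KD. It fell by 4.61 ± 0.27 (SE) on the log2 scale by library size and by 4.25 with TMM, and was chosen after its values were seen. Its mean position, 25.2% and 27.7% of the length in control against 26.6% and 27.4% in KD, overlapped between conditions. The measures that follow are shares within a transcript, which do not depend on this scaling.

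Position was measured as the mean position of the read starts, in percent of the transcript's length from its 5′ end. Its median over members was 46.8% and 51.6% in the control against 48.7% and 52.1% in the KD libraries, and the groups overlap. The median difference of KD from control was 1.01 percentage points, 1.57 in replicates numbered 1 and 0.46 in those numbered 2. The replicates lay further apart than the conditions, by 3.85 points in control and 2.66 in KD, with replicate 2 nearer the 3′ end in both. In all, 54.2% of members lay nearer the 3′ end in both same-numbered differences, 14.0% nearer the 5′ end in both and 31.8% in opposite directions. No transcript passed the limma test (0% of 4590, lowest adjusted p = 0.99989), and 29 higher and 10 lower had an unadjusted p under 0.05. Without overlap between the groups, 497 transcripts (10.8%) were higher and 231 (5.03%) lower in KD. The median difference turned to -0.79 without control replicate 1 and to -0.23 without KD replicate 2. V1 profiles gave a like picture, with differences of 1.41 and 0.136 points in the same-numbered pairs and 4.20 between their control replicates.

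**Figure D1:**
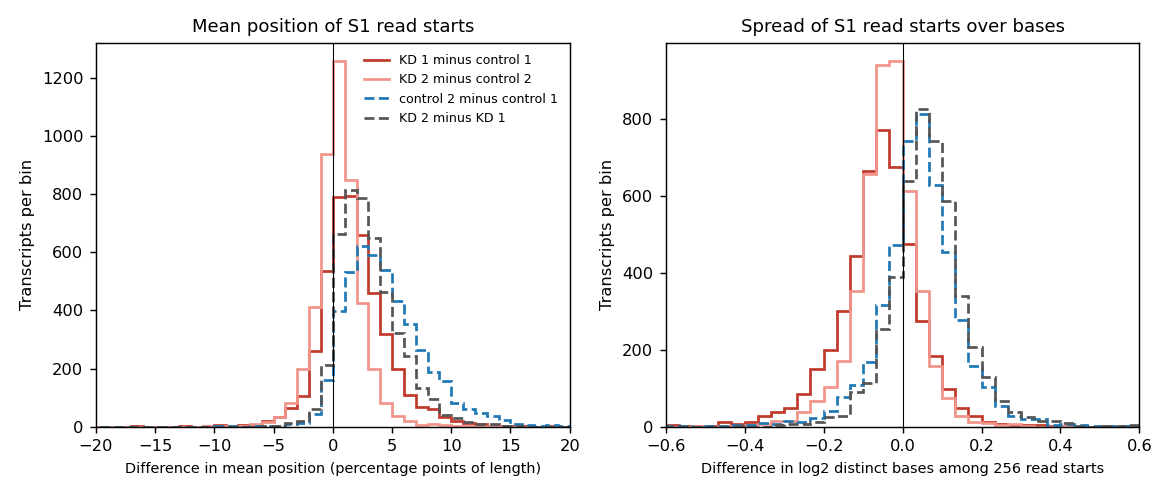
Distribution over the 4590 members of the difference in mean position (left, in percentage points of transcript length) and in spread (right, log2 of distinct bases at equal depth), as number of members per bin, with full lines for KD minus the same-numbered control, dashed lines for replicate 2 minus replicate 1 within each condition, and a few members beyond the ends of the x axes. KD differences are centred a little above 0 in position (medians 1.57 and 0.46) and a little below 0 in spread (-0.054 and -0.036), while replicate differences lie further from 0 in position (3.85 and 2.66) and above 0 in spread (0.046 and 0.063).

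The same contrast appears when transcripts are divided into 10 bins of equal length, counted from the 5′ end. Over the 3960 members of at least 1000 bases, bin 10 held 5.26% and 8.46% of a transcript's S1 read starts in control against 6.69% and 8.97% in KD, as means over members. Bin 3 held 12.6% and 10.8% in control against 11.8% and 10.6% in KD. In both bins KD 1 lay between the control replicates and KD 2 beyond them, on the side of control 2. At the very ends, the first 100 bases held a median of 0.195% and 0.156% in control against 0.210% and 0.192% in KD, and the last 200 bases 1.23% and 2.35% in control against 1.57% and 2.53% in KD. The last 200 bases had a higher share in both same-numbered differences in 52.0% of these members and a lower one in both in 13.0%. The median difference of 0.175 points in this share turned to -0.150 without control replicate 1 and to -0.0822 without KD replicate 2.

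**Figure D2:**
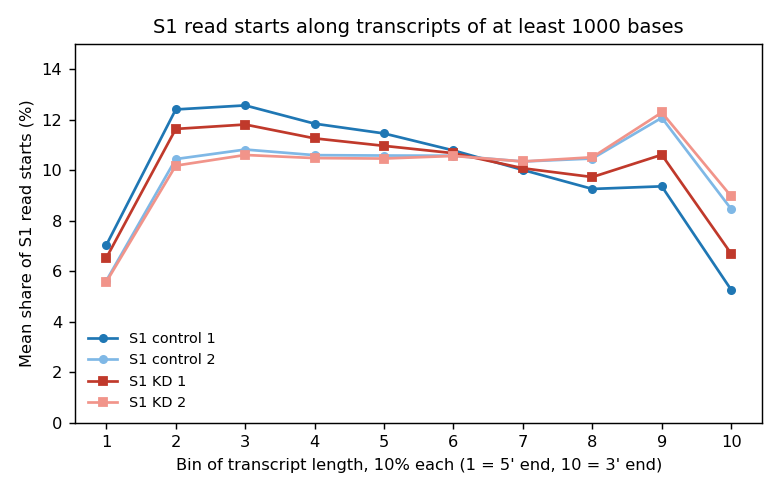
Mean share of a transcript's read starts in each of 10 bins of its length from the 5′ to the 3′ end, in percent, over 3960 members of at least 1000 bases, with 1 line per library. Replicates numbered 1 sit above those numbered 2 in bin 3 (12.6% and 11.8% against 10.8% and 10.6%) and below them in bin 10 (5.26% and 6.69% against 8.46% and 8.97%), in control and KD alike.

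Symbols were at hand for 1997 members, all from a list that the study chose on these samples. The transcripts with the largest differences in position among them did not pass the test, and none of their groups overlap, which the rule that chose them required. CD47, the cell-surface ligand that inhibits phagocytosis, had its mean position at 31.5% and 45.8% of the length in control against 61.4% and 66.3% in KD, a difference of 25.2 ± 5.27 points (SE, limma adjusted p = 0.99989). With V1 its mean position was 32.7% and 42.7% in control against 53.0% and 54.7% in KD, nearer the 3′ end in KD with both enzymes and without overlap. ACTR3, a subunit of the Arp2/3 complex that nucleates actin branches, lay at 30.8% and 38.9% in control against 43.6% and 49.1% in KD. MRPL42, a protein of the mitochondrial ribosome, lay at 31.7% and 38.2% in control against 44.5% and 47.1% in KD. TIMP2, an inhibitor of matrix metalloproteinases, was at 63.4% and 79.2% in control against 80.1% and 84.1% in KD. In ACTR3, MRPL42 and TIMP2 the control replicates were further apart than control 2 and KD 1. With V1, ACTR3 was at 31.1% and 35.2% in control against 39.1% and 39.8% in KD, without overlap, whereas the groups overlapped for MRPL42, at 28.6% and 37.9% in control against 36.3% and 41.3% in KD, and for TIMP2. With the median in place of the mean position, the difference was 74.1 points for CD47, 30.6 for MRPL42 and 1.42 for TIMP2, where the mean gave 10.8. Without control replicate 1 the difference in mean position was 2.90 for TIMP2 and 7.47 for ACTR3, against 11.5 for ACTR3 with all libraries. Without control replicate 2 it was 18.7 for TIMP2 and 15.5 for ACTR3.

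In the other direction the differences were smaller. PTK2, the focal adhesion kinase, had its mean position at 57.2% and 58.2% in control against 45.0% and 54.0% in KD. DHRS3, a retinal reductase, was at 56.6% and 58.3% in control against 49.0% and 52.5% in KD. In these and in the next pair the control replicates were within a few points of each other. PFKL, a phosphofructokinase of glycolysis, was at 26.4% and 28.6% in control against 19.3% and 22.9% in KD, and DCTN1, the largest subunit of the dynein activator dynactin, at 44.1% and 45.9% in control against 38.2% and 40.7% in KD. With V1 the groups overlapped in all 4 of PTK2, DHRS3, PFKL and DCTN1, for example at 37.3% and 45.6% in control against 38.0% and 45.1% in KD for PFKL. The difference for DHRS3 was -6.67 points, but -2.78 without the base that holds most read starts and -22.0 with the median position. That for PTK2 was -8.19, but -3.67 without KD replicate 1 and -21.4 with the median position, and that for DCTN1 was -5.54, but -2.57 with the median position.

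Spread was measured as the number of distinct bases expected when as many read starts as the minimum for membership are drawn from a transcript, so that every library and transcript was compared at the same depth. Its medians were lower in KD than in the same-numbered control: the median member had 120.7 and 124.7 distinct bases in control against 115.6 and 121.4 in KD. The median log2 difference was -0.045, -0.054 in replicates numbered 1 and -0.036 in those numbered 2, against 0.046 between the control replicates and 0.063 between the KD replicates. It was -0.076 without KD replicate 2, -0.066 without control replicate 1, -0.021 without control replicate 2 and -0.011 without KD replicate 1. In both same-numbered differences 60.2% of members were lower and 12.7% higher. No transcript passed the limma test (0% of 4590, lowest adjusted p = 0.264), while 420 lower and 12 higher had an unadjusted p under 0.05. Without overlap between the groups, 1688 (36.8%) were lower and 142 (3.09%) higher in KD. Between same-numbered libraries the lower spread was present in each class of length, from -0.033 and -0.021 in the 110 members under 200 bases to -0.058 and -0.033 in the 847 of at least 4000 bases. In each class the median of KD 2 lay above that of control 1, as it did over all members. The medians of the groups therefore overlap. As deposited, with depth not equalised, a median of 28.7% and 28.0% of a transcript's bases had a read start in control against 23.6% and 22.8% in KD.

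V1 profiles of the same transcripts did not show the lower spread. Their medians were 161.9 and 159.4 distinct bases in control against 160.3 and 159.6 in KD, with log2 differences of -0.0089 and 0.0036. The difference between the enzymes was tested as an interaction in limma over the 4553 members that also exceed the minimum in each V1 library. Its median for spread was -0.040, no transcript passed (lowest adjusted p = 0.0756), and 282 lower and 9 higher had an unadjusted p under 0.05. For position the median was 0.24 points and no transcript passed, with 1 higher and 3 lower at an unadjusted p under 0.05.

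RPL22L1, a paralogue of the ribosomal protein RPL22, showed the largest lower spread, with 58.4 and 65.9 distinct bases in control against 36.2 and 47.7 in KD (log2 difference -0.58 ± 0.13 SE, limma adjusted p = 0.312). Its V1 spread was 55.0 and 61.4 in control against 61.9 and 60.8 in KD, with the lowest value in a control library. RPL35A, a protein of the large ribosomal subunit, had 27.9 and 29.6 distinct bases in control against 20.3 and 20.8 in KD (-0.48 ± 0.058, adjusted p = 0.264), and its V1 spread was 66.6 and 66.5 in control against 69.0 and 68.7 in KD. In RPL35A the distance between conditions was larger than that between replicates. UBE3C, a ubiquitin ligase, had 96.7 and 83.8 in control against 66.8 and 65.8 in KD, and ZNF764, a zinc finger protein, 50.3 and 39.1 in control against 33.8 and 31.5 in KD. Their V1 spreads overlapped, at 206.7 and 202.3 in control against 201.1 and 202.7 in KD for UBE3C and at 131.7 and 95.4 against 122.3 and 94.7 for ZNF764. The size of these differences depended on the measure. Without the base that holds most read starts, the log2 difference for UBE3C was -0.18 in place of -0.44. With the effective number of bases (from Simpson's index) it was -0.16 for RPL35A and -0.20 for ZNF764, in place of -0.48 and -0.44. Leaving out KD replicate 1 gave -0.38 for RPL22L1, and leaving out control replicate 1 gave -0.26 for ZNF764. The transcripts higher in KD differed less. UNKL, a zinc finger protein, had 37.9 and 29.7 distinct bases in control against 39.3 and 39.3 in KD, and ODC1, the rate-limiting enzyme of polyamine synthesis, 83.0 and 95.1 in control against 104.2 and 97.2 in KD. OSER1 had 93.4 and 101.3 in control against 109.6 and 112.0 in KD, and AKR1A1, an aldehyde reductase, 74.8 and 84.4 in control against 85.8 and 93.6 in KD. For UNKL, ODC1 and AKR1A1 control 2 and KD 1, or control 1 and KD 1, were closer than the control replicates. Without the base that holds most read starts, the log2 difference was 0.07 for UNKL, 0.025 for ODC1 and 0.08 for AKR1A1, in place of 0.23, 0.18 and 0.17. With the effective number of bases it was between 0.57 and 0.61 for OSER1, ODC1 and AKR1A1. Leaving out 1 control library lowered the log2 difference to 0.05 for UNKL (control 2), 0.08 for ODC1 and 0.09 for AKR1A1 (control 1). Leaving out the other control library raised it to 0.41 for UNKL, 0.28 for ODC1 and 0.26 for AKR1A1.

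To see where within a transcript the cuts differed, the share of its read starts was taken in windows of 100 bases and at single bases. Of 72868 windows with a mean of at least 50 read starts, in 4489 transcripts, none passed the limma test (0%, lowest adjusted p = 0.844), and 1207 higher and 2512 lower had an unadjusted p under 0.05. Without overlap between the groups, 9512 (13.1%) were higher and 16740 (23.0%) lower in KD. A loss of at least 2-fold in both same-numbered differences was seen in 379 windows and a gain in 116, while 6 differed that much in opposite directions. In single comparisons, 2-fold was reached in 4049 windows between KD 1 and control 1 and in 1547 between KD 2 and control 2. Between the control replicates it was reached in 5708 and between the KD replicates in 3244. The minimum was a mean over all 4 libraries, so a window low in KD could pass through the control libraries. In the interaction with V1 over 69029 windows none passed, and 321 higher and 852 lower had an unadjusted p under 0.05.

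**Figure D3:**
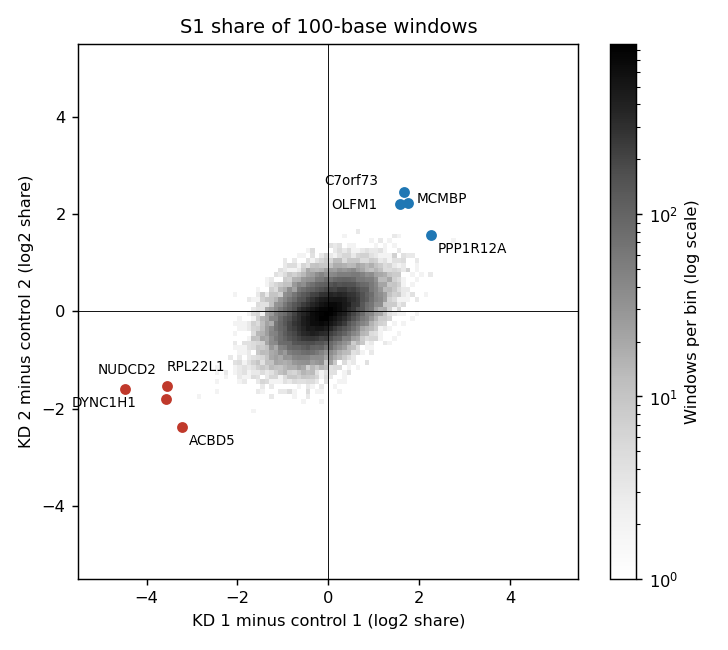
Log2 difference in the share of a transcript's S1 read starts in 100-base windows, KD 1 against control 1 on the x axis and KD 2 against control 2 on the y axis, for 72868 windows; colour gives the number of windows on a log scale and the named windows are marked. Most windows lie near 0 on both axes, and windows at least 2-fold lower on both (379) outnumber those at least 2-fold higher on both (116), with a minimum on the mean of all 4 libraries that a window low in KD could pass through control.

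The windows named by the rule lie at different places in their transcripts. In NUDCD2, a co-chaperone of the NudC family, the last window (bases 901 to 977 of 977) held 0.853% and 0.905% of the read starts in control against 0.0377% and 0.299% in KD, from 550 and 700 read starts against 42 and 223. In ACBD5, a peroxisomal acyl-CoA-binding protein, bases 501 to 600 held 2.88% and 4.47% in control against 0.301% and 0.851% in KD. In DYNC1H1, the heavy chain of cytoplasmic dynein, the last window (bases 14301 to 14361) held 0.118% and 0.152% in control against 0.00951% and 0.0431% in KD. Each of these was lower in both KD libraries than in either control, with KD 1 the lower of the KD libraries. Without KD 1 the log2 difference was -1.55 for NUDCD2 and -1.63 for DYNC1H1, in place of -3.04 and -2.69. V1 placed 1.80% and 1.35% of its ACBD5 read starts in the same window in control against 1.49% and 1.62% in KD.

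Among the windows higher in KD, bases 2301 to 2400 of C7orf73 held 0.126% and 0.0959% in control against 0.398% and 0.527% in KD. In MCMBP, which binds the MCM helicase, bases 3901 to 4000 held 0.283% and 0.465% in control against 0.959% and 2.18% in KD, and V1 there gave 0.353% and 0.495% in control against 0.933% and 1.46% in KD. In PPP1R12A, the targeting subunit of myosin phosphatase, the first 100 bases held 0.280% and 0.814% in control against 1.36% and 2.44% in KD, while V1 gave 0.301% and 0.642% in control against 0.551% and 0.343% in KD, which overlap. In MCMBP both enzymes were higher in both KD libraries. In OLFM1, a secreted glycoprotein, bases 401 to 500 held 1.40% and 0.646% in control against 4.14% and 2.99% in KD, and V1 gave 0.593% and 0.556% in control against 1.98% and 1.18% in KD. These 4 windows rest on 25 to 145 read starts per library, and the log2 difference for PPP1R12A was 1.16 without control 1, in place of 1.92.

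At single bases, 338522 with a mean of at least 20 read starts were tested; they are 2.74% of all bases of the members and hold 89.6% of their S1 read starts. None passed the limma test (0%, lowest adjusted p = 0.793), with 9280 higher and 11442 lower at an unadjusted p under 0.05, and 62253 (18.4%) were higher and 63278 (18.7%) lower without overlap. A larger difference was more often a loss: 5087 bases were at least 2-fold lower in both same-numbered differences and 2473 at least 2-fold higher, and at 4-fold these were 352 (in 218 transcripts) and 14. The minimum was a mean over all 4 libraries, and the median member had more read starts in control than in KD. A lost base could therefore enter through the control libraries alone, and the part of this in the excess of losses was not tested. In single comparisons, 4-fold was reached at 4273 bases between KD 1 and control 1 and at 1745 between KD 2 and control 2, and at 2664 between the control and 4728 between the KD replicates. Bases lower by 2-fold had a median position of 41.2% of the length and those higher 60.9%, against 48.1% over all tested bases, and 31.2% of the higher ones lay in the last 20% of their transcript against 13.5% of the lower ones and 17.2% of all. At the 1620 lower bases with at least 20 V1 read starts on average, the median log2 V1 difference was -0.069 in replicates numbered 1 and 0.0016 in those numbered 2, and at the 747 such higher bases it was 0.252 and -0.021.

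The 352 bases lower at least 4-fold were not evenly distributed. RPL22L1 held 23 of them (6.53%), and 158 transcripts held 1 each. ATP1B3, a beta subunit of the sodium pump, held 8, and HSP90AA1, a cytosolic chaperone, and GNB2L1 (RACK1), a scaffold protein on the ribosome, held 7 each. Grouping such bases where neighbours were at most 30 bases apart and at least 4 were joined gave 6 stretches, a definition made after the data were seen, so that their S1 values are a description. In RPL22L1 the stretch from base 245 to 346 held 9.63% and 11.2% of the S1 read starts in control against 0.757% and 3.59% in KD, which is 7.86% and 32.0% of the same-numbered control. V1 read starts, which had no part in the choice, made up 0.373% and 0.512% of that transcript's total there in control against 0.497% and 0.641% in KD.

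The strongly cut bases upstream of this stretch, bases 137 to 172 (a mean share of at least 0.5% each at the first and last), took 81.3% and 77.7% of the RPL22L1 S1 read starts in control against 94.4% and 89.0% in KD. Their numbers of read starts were 47562 and 47920 in control against 47848 and 26256 in KD, whereas in the stretch from 245 to 346 they were 5635 and 6917 in control against 384 and 1060 in KD. The window of bases 201 to 300, which the rule named, held 7.75% and 8.68% in control against 0.661% and 3.01% in KD. The KD replicates were several-fold apart in it, and both lay under the control libraries, with a log2 difference of -2.54 that was -1.45 without KD 1.

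**Figure D4:**
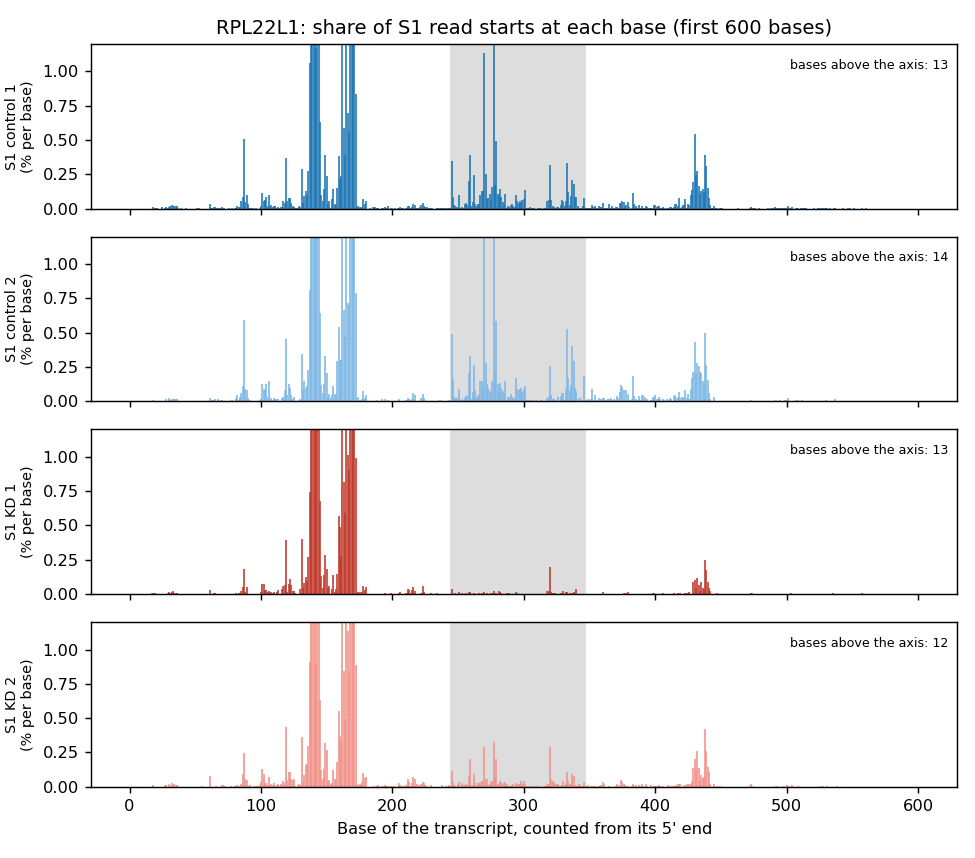
S1 read starts at each of the first 600 bases of RPL22L1 as percent of the transcript's total, 1 panel per library, with the stretch from base 245 to 346 shaded and the y axis ending below the tallest bases, whose number is given in each panel. Inside the shaded stretch the control libraries hold 9.63% and 11.2% of the read starts and the KD libraries 0.757% and 3.59%.

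The other 5 stretches lay in KIAA0101, PCNA, ATP1B3, GNB2L1 and YWHAE. In KIAA0101, the PCNA-associated factor, bases 840 to 879 held 0.501% and 0.785% in control against 0.0526% and 0.231% in KD, and in PCNA itself, the sliding clamp of DNA replication, bases 591 to 616 held 2.31% and 3.63% in control against 0.379% and 0.979% in KD. In ATP1B3, bases 741 to 757 held 1.17% and 1.21% in control against 0.135% and 0.348% in KD. In all 6 stretches the S1 share in KD was between 7.86% and 34.9% of the same-numbered control, a low share that follows from how they were chosen. The V1 share, which had no part in the choice, was between 74.7% and 193%. Setting the 2 side by side is thus no test of a difference between the enzymes. Some V1 shares rest on few read starts, 17 to 25 per library in YWHAE. GNB2L1 (bases 309 to 327) held 2.08% and 2.45% in control against 0.603% and 0.857% in KD. YWHAE, a 14-3-3 protein, held 0.558% and 1.01% in control against 0.0625% and 0.251% in KD at bases 1786 to 1797. The V1 share in ATP1B3 was lower in both KD libraries as well, at 74.7% and 75.1% of control, and in the other 5 at least 1 pair was above 100%.

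**Figure D5:**
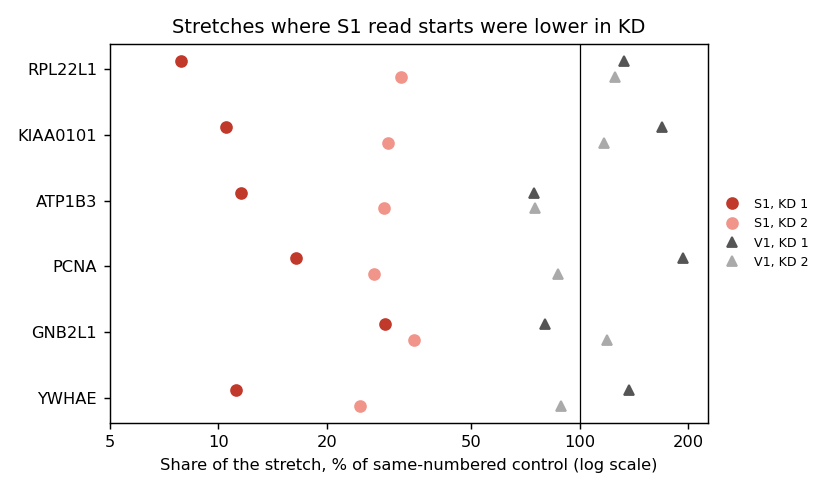
Share of read starts in KD as percent of the same-numbered control, on a log axis, for the 6 stretches of bases lower at least 4-fold, with S1 and V1 points for each same-numbered pair. S1 points lie between 7.86% and 34.9%, as the choice of the stretches by S1 requires low values, and V1 points, not used in the choice, between 74.7% and 193%, around the line at 100%.

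Single bases named by the rule rest on few read starts. Base 271 of RPL22L1 counted 147 and 174 in control against 0 and 16 in KD. Base 830 of ATP5B, the catalytic subunit of ATP synthase, had 38 and 44 in control against 0 and 1 in KD, and base 799 of ATP1B3 had 27 and 52 in control against 1 and 0 in KD. Base 901 of NUDCD2 had 58 and 58 in control against 0 and 24 in KD. The 4 bases were lower in both KD libraries, and for a base with 0 read starts the KD share is known only to lie under the level of 3 read starts. Among the bases higher in KD, base 2100 of BMP2, a bone morphogenetic protein, had 15 and 105 in control against 154 and 490 in KD, with 21 and 114 V1 read starts in control against 203 and 546 in KD. Base 3376 of MKI67, which encodes the proliferation marker Ki-67, had 1 and 16 in control against 26 and 44 in KD. In BMP2 both enzymes had more read starts at this base in KD, and replicates differed several-fold in each condition. Base 2821 of FXR2, an RNA-binding protein of the fragile X family, had 1 and 32 in control against 37 and 36 in KD, and base 2238 of CCT6A, a chaperonin subunit, 1 and 22 in control against 31 and 32 in KD. The size of these differences rested on single libraries. Without control 1 the log2 difference in share was 1.44 for BMP2, 1.29 for MKI67, 0.45 for FXR2 and 0.64 for CCT6A, in place of 2.94, 2.77, 2.65 and 2.55. Without KD 1 it was -1.33 for NUDCD2, in place of -4.43, and -2.26 for RPL22L1, in place of -5.17. Both have 0 read starts in KD 1, and with 2 read starts added in place of 0.5 the values were -3.42 and -4.12.

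Groups of genes with a shared function were then described by their counts without overlap, read against the 36.8% lower and 3.09% higher in spread and the 5.03% lower and 10.8% higher in position over all members. No member of any list passed the limma test for position or spread. Of 35 cytosolic ribosomal protein transcripts, 18 had a lower spread in KD without overlap and 0 a higher one, with a median of -0.075 against -0.045 over all members. RPS27A had 77.2 and 74.5 distinct bases in control against 61.0 and 64.6 in KD, and RPS3A 117.3 and 113.6 in control against 99.6 and 101.2 in KD. RPL37, the ribosomal protein transcript with the most read starts, had 31.8 and 33.2 in control against 26.7 and 35.4 in KD, which overlap.

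For other parts of the gene expression machinery, 7 of 15 translation factors and 11 of 33 splicing factors had a lower spread without overlap, and 0 and 2 a higher one. EIF3H, a subunit of the initiation factor eIF3, had 108.9 and 102.6 distinct bases in control against 88.4 and 82.7 in KD, and EIF6, which keeps ribosomal subunits apart, 57.2 and 57.8 in control against 47.3 and 49.2 in KD. SFPQ, a paraspeckle and splicing protein, had 124.7 and 113.1 in control against 95.7 and 88.8 in KD, and its mean position was 69.1% and 75.5% in control against 76.9% and 79.2% in KD. SNRPD3, a core protein of spliceosomal snRNPs, had 77.2 and 66.5 in control against 56.2 and 55.1 in KD. EEF1A1 and EEF1G, the elongation factors with the most read starts, and SRSF5, a splicing factor, differed less, with EEF1A1 at 151.4 and 155.5 in control against 148.0 and 154.3 in KD.

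Among metabolic lists, 14 of 36 transcripts of the respiratory chain and ATP synthase had a lower spread and 1 a higher one without overlap, and 6 and 2 of 35 mitochondrial ribosomal proteins. NDUFB6, a subunit of complex I, had 82.6 and 76.8 distinct bases in control against 70.2 and 70.9 in KD. ATP5B had 90.9 and 82.1 in control against 87.6 and 75.7 in KD, which overlap. Of 17 proteasome transcripts 5 were lower and 1 higher, and PSMD13, a lid subunit, had 84.1 and 77.4 in control against 70.4 and 67.8 in KD while PSMA3, a core subunit, had 138.2 and 139.5 in control against 127.7 and 127.8 in KD. Of 29 heat shock and ER folding transcripts 10 were lower and 2 higher, and HSP90AA1 had 117.9 and 122.0 in control against 103.2 and 108.0 in KD, whereas HSP90AB1, its constitutive paralogue, had 140.3 and 149.1 in control against 143.5 and 151.6 in KD. Of 7 histone transcripts 3 were lower and 0 higher, and of 14 noncoding RNAs 2 were lower and 2 higher. FENDRR, a long noncoding RNA, had 123.2 and 117.8 in control against 106.6 and 103.8 in KD. Of the transcripts with the most read starts in each list, MRPS34, MRPL14, ATP5H, HIST1H1C, HIST1H2BF, SNHG6, RHOA and YME1L1 had a spread that overlapped between conditions, as did uc022brd.2, the most covered transcript of all, with 145.6 and 156.8 in control against 138.7 and 154.9 in KD.

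Of 20 transcripts of the interferon and double-stranded RNA response, 4 had a lower and 1 a higher spread without overlap, and in position 2 were lower and 3 higher. DHX9, a helicase that unwinds double-stranded RNA, had 116.0 and 119.0 distinct bases in control against 112.3 and 122.8 in KD. B2M, the light chain of MHC class I, had 80906 and 54502 read starts in control against 36928 and 20900 in KD. In level, 6 of the 20 were lower and 0 higher by library size and 5 lower and 2 higher with TMM (limma adjusted p under 0.05), against 871 lower and 70 higher of all 4590 (19.0% and 1.53%) by library size and 435 and 313 with TMM. The mean position of B2M, 46.0% and 51.2% in control against 49.5% and 52.7% in KD, overlapped.

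A list of 23 transcripts with edited 3′UTRs was chosen by the study on these same samples and is no independent evidence of a direction. In position, 10 of the 23 lay nearer the 3′ end in KD without overlap and 0 nearer the 5′ end, with a median difference of 1.81 points against 1.01 over all members. Medians of this list were 44.3% and 49.0% in control against 48.9% and 51.6% in KD, so that KD 1 and control 2 were at about the same place. TXNDC15 lay at 38.9% and 48.2% in control against 49.3% and 53.4% in KD. NAA50, an N-terminal acetyltransferase, lay at 34.9% and 43.7% in control against 44.6% and 47.5% in KD. In the list 5 had a lower and 2 a higher spread, with a median of -0.007. Against 10.8% of all members, the share nearer the 3′ end without overlap was 43.5% in this list, 42.9% in the histones (3 of 7) and 22.2% in the respiratory chain and ATP synthase (8 of 36). The share nearer the 5′ end was 28.6% in the histones (2 of 7) and 5.56% in the respiratory chain (2 of 36), against 5.03% of all members. In the other 8 lists the share nearer the 3′ end was 0% to 21.4%. The share nearer the 5′ end was 0% to 10% there, which is 0 to 3 transcripts a list.

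Of 5 transcripts chosen from those that the study itself names, PSMB2, a subunit of the proteasome, lay at 18.7% and 22.1% of the length in control against 23.2% and 25.4% in KD. Its spread of 142.5 and 153.8 distinct bases in control against 151.2 and 159.1 in KD overlapped. PAICS, an enzyme of purine synthesis, lay at 65.4% and 64.7% in control against 62.1% and 61.5% in KD, nearer the 5′ end, with an overlapping spread. F11R, a tight junction protein, had overlapping positions of 47.9% and 53.8% in control against 48.9% and 51.6% in KD, and a spread of 142.6 and 138.8 in control against 143.6 and 145.6 in KD. PSMB2 and PAICS thus differed in opposite directions, by 3.91 and -3.28 points, and neither passed the test. The tRNA-Arg (uc021ucc.1, 73 bases) had 22.7 and 25.8 distinct bases in control against 21.4 and 19.7 in KD, and U2 (uc021xtz.1), the spliceosomal RNA that pairs with the branch point, 15.4 and 15.9 in control against 13.8 and 15.6 in KD. Both small RNAs had cuts on few bases, and U2 overlapped between conditions.

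A 3-base periodicity, looked at after the data were seen, was stronger with S1 than with V1. Over 3058 members of at least 1000 bases with at least 2000 read starts in their shallowest library, thinned to equal depth, the power at a period of 3 bases relative to nearby periods had a median of 2.15 and 1.99 in S1 control, 2.23 and 2.17 in S1 KD and 1.05 to 1.13 in the V1 libraries. It was higher in both same-numbered differences in 28.0% of members and lower in both in 23.3%, so that members were divided in direction. The correlation of read starts between neighbouring bases had a median of 0.663 and 0.653 in control against 0.664 and 0.655 in KD, so that the replicates differed more than the conditions.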

How the data were processed

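The tables deposited by the authors give read starts per base of UCSC canonical transcripts (hg19) for each PARS-seq library, from reads trimmed with cutadapt and aligned uniquely with Bowtie2, without normalization; each cell holds a string of whole numbers per transcript, so limma on a log scale was used and count models were not run. Marker levels are RPKM deposited by the authors, each a mean over the S1 and V1 library of a replicate. Members and lists were chosen with earlier results of these data known.

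Level was log2 of read starts scaled to the read starts of the library on the members, with 0.5 added. Spread used exact rarefaction to the number of read starts required of members. Shares per window (mean of at least 50 read starts) and per base (at least 20) were log2 of the share of the transcript, with 0.5 added. limma 3.58.1 in R 4.3.3, with a trend on the mean, gave two-sided tests at a Benjamini-Hochberg adjusted p of 0.05. Scripts used Python 3.11.15, numpy 2.4.6, scipy 1.17.1, pandas 2.3.3 and matplotlib 3.10.9, and were tested on simulated data. TMM followed its published definition, trimming 30% of ratios and 5% of levels. P-values measure only the spread between these libraries.

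Symbols were taken only from the study's supplementary list of transcripts with structural change, which covers 1997 members and was itself chosen on these samples; the other 2593 go unnamed. Named were F11R, PSMB2, PAICS, tRNA-Arg and U2 from among the transcripts the study names, while MDM4, XIAP, BPNT1 and MALAT1, which it also names and for which the symbols used here hold no entry, were not analysed here; for position, spread, windows and bases the 4 largest differences in each direction among members with a symbol, at least 1000 read starts on average and groups without overlap, since none passed the test; the 2 members with the most read starts in each list; and the most covered transcript. List members named beyond these were chosen after their values were seen. Reads carry no molecular identifiers in the sources used here, so the depth of 7.18 to 10.4 read starts per base may overstate the number of independent molecules. Alternatives covered scaling, filters, measures, pseudocounts, a replicate block and leaving out each library.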

Additional observations from a re-analysis of the deposited data

How the results depend on the processing

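The absence of calls for position, spread, windows and bases held under the other measures, filters, window sizes and pseudocounts tried, with these exceptions. Counting each cut base once gave 5 transcripts for position. For single bases, no minimum beyond 1 read start gave 1667 and library-size scaling, which lets the level in, 5540. For the other exceptions the cause was not tested.

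Replicate numbers are not stated to mark a shared day or culture. Deviations of same-numbered libraries correlated across features at 0.451 for level, 0.657 for position, 0.543 for spread, 0.576 for windows and 0.408 for bases, from 2 pairs. With the replicate number as a block, 306 transcripts passed for spread (290 lower, 16 higher), 4353 windows (2607 lower, 1746 higher) and 15687 bases (8388 lower, 7299 higher), and in the interaction with V1 2 transcripts for spread and 8 windows; position stayed at 0, and level gave 1017. Of 32 named features, 20 passed with the block.

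Leaving out 1 library, with the lone library assumed to vary like the other group, changed the counts. For level they ran from 220 (without KD 2) to 1800 (without control 2), with 257 without KD 1 and 489 without control 1, for position from 1 to 102 (without control 2), for spread from 10 to 104 (without control 2), for windows from 0 to 78 (without KD 2) and for bases from 0 to 1311 (without KD 2). The median position difference ran from -0.79 (without control 1) to 2.98, the share in the last 200 bases from -0.150 (without control 1; -0.0822 without KD 2) to 0.718 points, and the median spread difference from -0.076 to -0.011. At single bases the depth was as low as a mean of 20 read starts, the minimum required.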
